A study of Mus musculus with 3 samples.

Results

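The 9 isoenzyme genes analysed here belong to carbohydrate metabolism. They were followed through the germ cell stages and somatic cells of the mouse testis, with each general enzyme set beside its testis form. The list was given by gene name and was chosen with earlier results of these data known. Ldha, Ldhb and Ldhc encode lactate dehydrogenase, Pgk1 and Pgk2 phosphoglycerate kinase, Pdha1 and Pdha2 the E1 alpha subunit of pyruvate dehydrogenase, and Gapdh and Gapdhs glyceraldehyde-3-phosphate dehydrogenase. All 9 were found in each of 3 libraries, among 34313 genes seen in at least 3 cells of a library. The Tomato-negative library came from Ddx4-creER; R26tdTomato mice, 8 weeks old and given tamoxifen, whose germ cells turn on a red fluorescent protein. Tomato-positive cells had been sorted out of it, yet 3590 of its 5085 kept cells (70.6%) were in germ cell clusters. The Scf-cKO library came from Amh-cre; Scf fl/fl mice, 6 weeks old, in which Cre acts in Sertoli cells and deletes Scf (gene symbol Kitl), and the control library from Scf fl/fl mice of the same age, which carry the floxed alleles without Cre. The last 2 libraries had been sorted to remove haploid cells, and all mice were C57BL/6. The study describes 3 mice for the Tomato-negative cells and 3 pairs of mice for the others, with 1 library per condition, and no statement was found on how mice were combined.

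Glycolysis turns glucose into pyruvate. Lactate dehydrogenase exchanges pyruvate and lactate, and pyruvate dehydrogenase feeds pyruvate into the mitochondrial citric acid cycle. Meiotic and haploid germ cells live behind the Sertoli cell barrier and are known to use lactate that Sertoli cells provide, whereas sperm run glycolysis along the tail. Pgk1 and Pdha1 lie on the X chromosome, which is silenced in male meiosis, and their autosomal copies Pgk2 and Pdha2 arose by retroposition.

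The libraries held 7626 Tomato-negative, 7252 Scf-cKO and 6264 control cells with 195380762, 68602272 and 90453018 UMIs (unique molecular identifiers, each counting 1 captured RNA molecule), of which 5085, 7017 and 5975 cells were kept. Clusters were named X-like from marker genes, with the 9 members and their pathway genes left out of the clustering. There were 521 Tomato-negative, 1201 Scf-cKO and 415 control undifferentiated spermatogonia-like cells, 1316, 1191 and 2100 differentiating spermatogonia-like cells, 732, 76 and 1178 leptotene and zygotene-like cells, and 478, 15 and 641 cells like pachytene and later spermatocytes (pachytene-like). Round spermatid-like cells numbered 231, 9 and 195 and elongating spermatid-like cells 286, 11 and 205, so cells with haploid markers were present in both sorted libraries. All markers of each germ cell class were detected in that class in every library. Kit, a marker of differentiating spermatogonia, had 38.2 CPM in the Scf-cKO and 156 CPM in the control cells of that class, and 72.1 CPM in control undifferentiated cells. The study named most Scf-cKO germ cells undifferentiated and few differentiating, so the Scf-cKO differentiating class here is wider than the study's. Kitl, the targeted gene, had 37.7 CPM (UMIs of the gene over all UMIs of the class, scaled to 1e+06; 12 counts) in Scf-cKO Sertoli-like cells, against 182 CPM (11 counts) in control Sertoli-like cells, of which there were only 22. Of the 87 Scf-cKO Sertoli-like cells, 64 were in a cluster where their Sertoli cell markers summed to 1309 CPM, at a median of 1149 UMIs. In Tomato-negative cells of that cluster these markers summed to 24791 CPM. The Scf-cKO cells may thus be partly misnamed, and the Kitl values are no test of the deletion. Values are summed UMIs of a class in a library, so levels of different genes can be compared without regard to length, ranges in parentheses are 95% intervals for counting error only, and no test over samples could be made, as every condition had a single library.

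The promoters of the testis forms and of Ldha, the general form next to Ldhc, are shown because the genes start at different points of one lineage. Each window runs from 250 bases before to 50 bases after a RefSeq transcript start (GRCm38.p6), 5′ to 3′ on the gene's strand. Capitals mark the letters TGACG (the core of the cAMP response element TGACGTCA), GGGCGG (GC box), CCAAT and TATAAA on either strand.
Ldhc (chr7:46861013-46861312, plus strand): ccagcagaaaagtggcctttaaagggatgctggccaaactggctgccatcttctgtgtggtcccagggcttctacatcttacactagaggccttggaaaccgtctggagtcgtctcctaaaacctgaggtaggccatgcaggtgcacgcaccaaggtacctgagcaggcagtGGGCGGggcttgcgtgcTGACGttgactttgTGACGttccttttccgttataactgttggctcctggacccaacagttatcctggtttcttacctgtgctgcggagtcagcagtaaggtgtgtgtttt
Ldha (chr7:46845554-46845853, plus strand): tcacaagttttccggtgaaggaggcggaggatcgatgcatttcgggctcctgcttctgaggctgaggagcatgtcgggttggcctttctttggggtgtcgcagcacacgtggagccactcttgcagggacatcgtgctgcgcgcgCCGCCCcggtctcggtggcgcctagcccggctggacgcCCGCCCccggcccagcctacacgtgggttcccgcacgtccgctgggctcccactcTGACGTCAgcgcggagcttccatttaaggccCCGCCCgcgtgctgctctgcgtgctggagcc
Pgk2 (chr17:40208560-40208859, minus strand): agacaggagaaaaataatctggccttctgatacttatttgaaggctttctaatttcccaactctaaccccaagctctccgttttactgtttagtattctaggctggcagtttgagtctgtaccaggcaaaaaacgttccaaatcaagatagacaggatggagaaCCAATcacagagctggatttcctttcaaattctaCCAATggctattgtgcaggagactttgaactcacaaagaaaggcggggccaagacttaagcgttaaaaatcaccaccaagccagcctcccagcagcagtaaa
Pdha2 (chr3:141212306-141212605, minus strand): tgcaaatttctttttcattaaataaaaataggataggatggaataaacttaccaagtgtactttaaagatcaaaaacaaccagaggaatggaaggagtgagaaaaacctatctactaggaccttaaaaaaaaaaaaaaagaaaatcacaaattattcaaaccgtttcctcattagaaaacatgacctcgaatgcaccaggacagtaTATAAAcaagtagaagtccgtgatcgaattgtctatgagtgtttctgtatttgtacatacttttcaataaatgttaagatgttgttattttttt
Gapdhs (chr7:30743632-30743931, minus strand): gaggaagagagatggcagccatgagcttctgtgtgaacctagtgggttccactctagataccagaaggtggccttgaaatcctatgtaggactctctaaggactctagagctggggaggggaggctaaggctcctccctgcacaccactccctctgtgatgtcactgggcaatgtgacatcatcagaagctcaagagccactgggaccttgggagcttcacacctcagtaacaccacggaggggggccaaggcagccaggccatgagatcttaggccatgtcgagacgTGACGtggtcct
The Ldhc window held the TGACG core at -61 and -47 (first base counted from the transcript start) and a GC box at -78, and the Ldha window held the whole element at -12 and GC boxes at -105, -67 and 19. The Pgk2 window held CCAAT at -86 and -52, the Pdha2 window TATAAA at -44 and the Gapdhs window TGACG at 38. GC content was 53.3% for Ldhc, 67.3% for Ldha, 43% for Pgk2, 29.7% for Pdha2 and 55.7% for Gapdhs. Among 32851 mouse promoters of this length, the whole element was found in 1.79%, the TGACG core in 20.81%, the GC box in 35.66%, CCAAT in 37.41% and TATAAA in 13.62%. These matches describe letters in a window and say nothing of binding. In the GRCm38 annotation Ldha (chr7:46841475-46855627) and Ldhc (chr7:46861203-46878142) are neighbours on the plus strand, Pgk2 is at chr17:40207015-40208640, Pdha2 at chr3:141210004-141212355 and Gapdhs at chr7:30729775-30743681, all on the minus strand. Of the other general forms, Ldhb is at chr6:142490249-142507957, Pgk1 at chrX:106187100-106203699, Pdha1 at chrX:160122209-160138413 and Gapdh at chr6:125161715-125166467, with Pgk1 on the plus strand and the others on the minus strand.

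The 4 testis forms appeared at different stages: Pdha2 was already detected in spermatogonia, Ldhc and Pgk2 were 23.1-fold to 29.8-fold higher in pachytene-like than in leptotene and zygotene-like cells, and Gapdhs was highest in elongating spermatid-like cells. Pgk1, Pdha1 and Gapdh had their lowest germ cell levels in pachytene-like or spermatid-like cells, whereas Ldha was 23.5-fold and 32.1-fold higher in pachytene-like cells than in the class before. Over each stage boundary many other genes differed as well. From leptotene and zygotene-like to pachytene-like cells 32.6% of the genes tested were at least 2-fold higher and 46.3% at most 0.5 of the other level in the Tomato-negative library, and 32.2% and 44.4% in the control library.

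**Figure D1:**
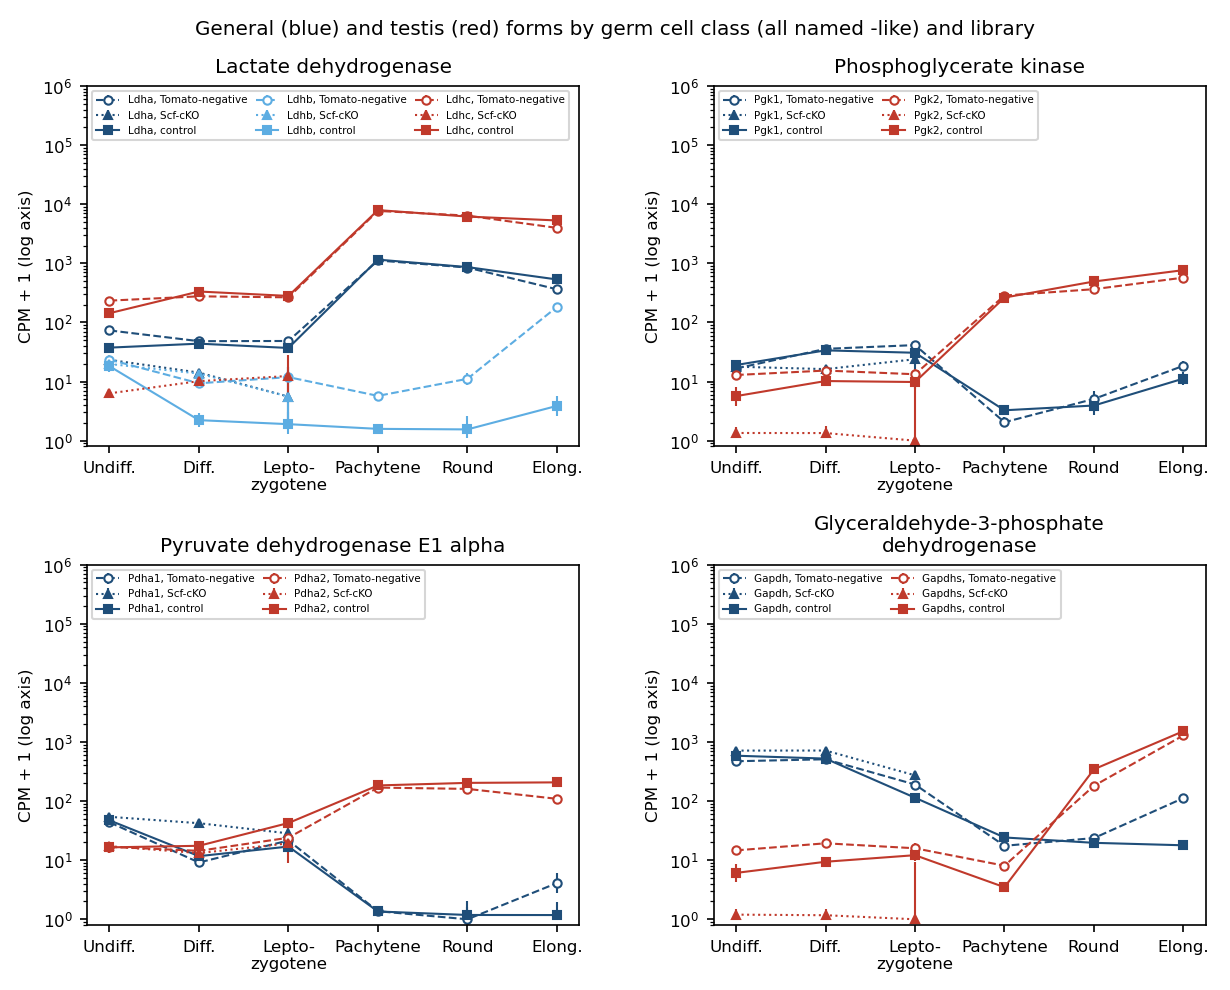
Levels of the 9 isoenzyme genes as CPM plus 1 on a log axis in the germ cell classes with at least 30 cells, with testis forms in red, general forms in blue, a point for each of the Tomato-negative, Scf-cKO and control libraries and bars for 95% counting intervals. Ldhc reached 7701 CPM in Tomato-negative and 7952 CPM in control pachytene-like cells, while Gapdhs was highest in elongating spermatid-like cells, at 1293 and 1524 CPM.

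Ldhc encodes the lactate dehydrogenase subunit of spermatocytes and sperm. Its level was 7701 CPM (7670 to 7731) in Tomato-negative and 7952 CPM (7921 to 7984) in control pachytene-like cells, the highest of the 9 genes in any class. Against leptotene and zygotene-like cells this was 29.1-fold (27.6 to 30.6) and 28.4-fold (27.1 to 29.9) higher. The level was 6409 and 6180 CPM in round and 3975 and 5311 CPM in elongating spermatid-like cells. Before pachytene, Ldhc had 233, 276 and 265 CPM in undifferentiated, differentiating and leptotene and zygotene-like cells of the Tomato-negative library, 5.31, 9.15 and 11.4 CPM in those of the Scf-cKO library, and 142, 332 and 280 CPM in those of the control library. Somatic classes, which should lack Ldhc, had 172 to 502 CPM, 3.14 to 10.2 CPM and 199 to 595 CPM in the same libraries. The levels before pachytene were thus below, within or near the range of the somatic classes of their own library. Over all somatic cells Ldhc had 366 CPM (354 to 377), 6.35 CPM (5.36 to 7.46) and 239 CPM (224 to 256), so that control differentiating spermatogonia-like cells, at 332 CPM (323 to 342), stood above the level of all control somatic cells. Of the 4628 Ldhc counts of these control differentiating cells, 2133 were in cluster AG12, which also held pachytene markers. The other clusters of this class, AG0, AG2 and AG3, had 165, 178 and 298 CPM in the control library. The part of free RNA (RNA outside cells that is captured with them) in the levels before pachytene was not tested.

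Ldha, the general form that favours lactate production, shared the step at pachytene. It had 1117 CPM (1106 to 1129) in Tomato-negative and 1154 CPM (1142 to 1166) in control pachytene-like cells, against 47.5 and 36.0 CPM in the leptotene and zygotene-like cells. For every 100 Ldhc counts there were 14.5 Ldha counts in pachytene-like cells of both libraries. Differentiating spermatogonia-like and leptotene and zygotene-like cells had 17.1 and 18.0 in the Tomato-negative library and 12.9 in each in the control library, and undifferentiated spermatogonia-like cells 31.1 and 25.6. The part of free RNA in these numbers was not tested. Somatic classes had Ldha at 147 to 601 CPM in the Tomato-negative, 123 to 327 CPM in the Scf-cKO and 259 to 312 CPM in the control library, with 197, 3449 and 130 Ldha per 100 Ldhc counts in myoid-like cells.

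Ldhb, the form of tissues that take up lactate, was above all a gene of somatic cells. It had 1652 CPM (1619 to 1686) in Tomato-negative and 1231 CPM (1112 to 1359) in Scf-cKO Sertoli-like cells, and 8.07%, 70.5% and 21.4% of the lactate dehydrogenase counts of Tomato-negative Sertoli-like cells were Ldha, Ldhb and Ldhc. The Scf-cKO value rests mostly on few cells. Of the 444 Ldha and Ldhb counts of these 87 cells, 51 were in the 64 cells that may be partly misnamed. Leydig-like cells followed with 1283 and 617 CPM. Up to pachytene Ldhb was highest in the undifferentiated spermatogonia-like class among germ cells, at 22.5 CPM (19.6 to 25.7) in the Tomato-negative, 18.8 CPM (17.0 to 20.8) in the Scf-cKO and 17.2 CPM (13.6 to 21.4) in the control library, where these intervals overlap. Control cells had 1.22 CPM in the differentiating and 0.582 CPM in the pachytene-like class.

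In elongating spermatid-like cells Ldhb stood at 182 CPM in the Tomato-negative and 2.87 CPM in the control library, and Gapdh at 112 and 16.9 CPM. The 10 Sertoli cell markers summed to 3194 CPM in the main cluster of these cells in the Tomato-negative library and to 53.2 CPM in the control library, against 24974 CPM in Tomato-negative Sertoli-like cells, and 10.8% of these Tomato-negative cells were called doublets, and the part of either in the Ldhb and Gapdh levels was not tested. Ldhb had 340.5 and 12.2 CPM in this cluster. In the other cluster of this class, where the markers summed to 126.5 and 1.64 CPM, Ldhb had 9.12 CPM (5.84 to 13.6) and 0 CPM (0 to 0.866) and Gapdh 20.9 and 15.5 CPM.

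Pgk1 and Pgk2 encode the first enzyme of glycolysis that makes ATP, and the 2 genes changed places at pachytene. Pgk2 had 284 CPM (278 to 290) in Tomato-negative and 262 CPM (256 to 268) in control pachytene-like cells, 23.1-fold (18.3 to 29.7) and 29.8-fold (22.5 to 40.2) above the leptotene and zygotene-like cells. It went on to 364 and 492 CPM in round and 572 and 766 CPM in elongating spermatid-like cells. Pgk1 had 40.4 CPM (35.3 to 45.9) and 29.7 CPM (25.3 to 34.6) in leptotene and zygotene-like cells of these libraries, but 1.05 CPM (0.726 to 1.47) and 2.26 CPM (1.76 to 2.86) in pachytene-like cells, ratios of 0.0260 (0.0176 to 0.0374) and 0.0763 (0.0568 to 0.101). In elongating spermatid-like cells Pgk1 was back at 17.5 and 10.2 CPM. The earlier levels of Pgk2, at 11.9 to 14.3 CPM in the Tomato-negative, 0 to 0.348 CPM in the Scf-cKO and 4.67 to 9.19 CPM in the control library, lay within or below the ranges of the somatic classes, which were 9.19 to 45.3 CPM, 0 to 0.261 CPM and 6.49 to 27.7 CPM, with the Scf-cKO spermatogonia-like classes just above.

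Pdha1 and Pdha2 form the subunit of pyruvate dehydrogenase that is regulated by phosphorylation. Pdha2 was the only testis form of the 4 with a spermatogonial level clearly above that of somatic cells in the library with the lowest somatic levels of the testis forms. In Scf-cKO cells it had 16.2 CPM (14.5 to 18.1) in undifferentiated and 12.2 CPM (10.6 to 13.9) in differentiating spermatogonia-like cells, against 0.261 CPM (0.0957 to 0.568, 6 counts) over all Scf-cKO somatic cells and 0 to 1.13 CPM in single somatic classes. After each cell was thinned to 2000 UMIs, a Pdha2 UMI was found in 3.33% (40 of 1200) of Scf-cKO undifferentiated spermatogonia-like cells and in 0 of 1982 Scf-cKO myoid-like cells, which allows a share of up to 0.186%, with unthinned shares of 22.2% and 0.0500% and median depths of 16417 and 5709 UMIs. Undifferentiated spermatogonia-like cells of the Tomato-negative and control libraries had 15.8 CPM (13.4 to 18.5) and 15.5 CPM (12.1 to 19.5), close to the Scf-cKO value. Over all somatic cells of those libraries Pdha2 was at 9.16 and 7.39 CPM. Single somatic classes had 2.475 to 15.1 CPM and 0 to 17.3 CPM there, so the highest of them came near or above the spermatogonial level.

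Later, Pdha2 was at 23.0 and 41.6 CPM in leptotene and zygotene-like and at 168 CPM (164 to 173) and 183 CPM (178 to 188) in pachytene-like cells of the Tomato-negative and control libraries, a step of 7.32-fold (6.15 to 8.77) and 4.40-fold (3.86 to 5.04). Pdha1 had its germ cell maximum in undifferentiated spermatogonia-like cells, at 42.7 CPM in the Tomato-negative, 53.2 CPM in the Scf-cKO and 46.2 CPM in the control library. Already in differentiating cells it was at 8.15 and 10.7 CPM in the Tomato-negative and control libraries, ratios of 0.191 (0.155 to 0.233) and 0.232 (0.187 to 0.286) to the class before, and in pachytene-like cells it was at 0.370 and 0.356 CPM. Somatic levels of Pdha1 reached 150, 138 and 143 CPM in the vascular smooth muscle-like cells of the Tomato-negative, Scf-cKO and control libraries.

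Gapdh was the most abundant member in spermatogonia-like cells of every library. It had 471, 714 and 585 CPM in the undifferentiated class of the Tomato-negative, Scf-cKO and control libraries and 509, 715 and 522 CPM in the differentiating class. In leptotene and zygotene-like cells it was at 190, 272 and 113 CPM, and in pachytene-like cells at 16.5 CPM (15.2 to 18.0) in the Tomato-negative and 23.2 CPM (21.5 to 24.98) in the control library. Its many processed pseudogenes make its exact level uncertain, since reads of such copies can be divided in counting.

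Gapdhs, whose product is bound to the fibrous sheath of the sperm tail, was the last testis form to appear. Pachytene-like cells had 7.06 and 2.49 CPM in the Tomato-negative and control libraries, below the 12.7 to 27.4 CPM and 6.49 to 38.0 CPM of the somatic classes. Round spermatid-like cells had 180 CPM (170 to 191) and 344 CPM (329 to 360), 25.5-fold (22.1 to 29.5) and 138-fold (110 to 176) above pachytene-like cells, and elongating spermatid-like cells had 1293 CPM (1263 to 1323) and 1524 CPM (1492 to 1557).

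Counted stage by stage, the members past 2-fold changed at each step. From undifferentiated to differentiating spermatogonia-like cells Ldhb and Pdha1 were at most 0.5 of the level before in the Tomato-negative library, with Pgk1 higher (2.23-fold), beside 18.4% and 11% of all genes compared. In the control library the same 2 were lower and Ldhc higher (2.34-fold, at levels below or within the range of somatic classes), beside 15.1% and 13.7%. Cluster AG12 held 2133 of the 4628 Ldhc counts of the control differentiating class. In the Scf-cKO library 0 of 7 members compared were past 2-fold either way, beside 4.45% lower and 2.25% higher among all genes.

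At the next step, into leptotene and zygotene-like cells, Gapdh was lower in all 3 libraries, at 0.373 (0.350 to 0.397) of the level before in the Tomato-negative, 0.380 (0.314 to 0.455) in the Scf-cKO and 0.216 (0.199 to 0.235) in the control library, where 26.7%, 37% and 25.8% of all genes were lower. Pdha1 was higher in the Tomato-negative library (2.52-fold, 1.95 to 3.26) and Pdha2 in the control library (2.52-fold, 2.09 to 3.03), beside 12.3% and 13.1% of all genes. No member was higher in the Scf-cKO library, beside 18.3%, and Ldha and Ldhb were lower there, on 2 counts each in 76 cells.

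Between pachytene-like and round spermatid-like cells Gapdhs was higher in both libraries, and Ldhb (2.14-fold) and Pgk1 (3.89-fold) in the Tomato-negative library alone, beside 30.9% of all genes there and 24.7% in the control library. None was at most 0.5 of the level before, beside 10.9% and 26.1%. Into elongating spermatid-like cells Gapdhs (7.17-fold and 4.43-fold) and Pgk1 (4.29-fold and 3.49-fold) were higher in both libraries and Ldhb and Gapdh in the Tomato-negative library alone, beside 27.1% and 19.1% of all genes. Ldha was lower in the Tomato-negative library, at 0.429 (0.407 to 0.451), beside 30.9%, and no member was in the control library, beside 32.8%.

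The clusters of the control library divide the passage through meiosis more finely. In their order by marker genes, cluster AG1 (873 cells) and AG10 (305 cells) are leptotene and zygotene-like, AG13 (256 cells) holds markers of both this class and pachytene and was left unnamed, AG16 (142 cells) and AG8 (422 cells) are pachytene-like, AG11 (151 cells) is round spermatid-like, and AG15 (96 cells) and AG9 (109 cells) are elongating spermatid-like. The 10 leptotene and zygotene markers summed to 8728, 12443, 4751, 1901 and 880 CPM and the 10 pachytene markers to 520, 1346, 4540, 4205 and 4769 CPM in the first 5 of these. Clusters AG13, AG16 and AG8 held only 7, 1 and 8 Tomato-negative cells, since 469 of 478 Tomato-negative pachytene-like cells were in another cluster of that class, AG7, in which 32.5% of the 77 control cells were called doublets.

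Pdha2 moved first, at 17.6 CPM (13.7 to 22.2) in AG1, 99.4 CPM (84.7 to 116) in AG10 and 272 CPM (261 to 284) in AG13, its highest value, before 215 and 173 CPM in AG16 and AG8. Ldhc was still at 247 and 358 CPM in AG1 and AG10 and stood at 6235 CPM in AG13, 8710 CPM in AG16 and 7870 CPM in AG8. Ldha took the same step, with 34.4, 39.9, 1023, 1233 and 1135 CPM in these 5 clusters. The step of Pdha2 between AG1 and AG10 thus came before the main step of Ldhc and Ldha, between AG10 and AG13.

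Pgk2 came later than Ldhc. It had 8.91, 8.59 and 19.2 CPM (16.4 to 22.4) in AG1, AG10 and AG13, then 87.2 CPM in AG16 and 319 CPM (312 to 327) in AG8, and went on to 497, 697 and 987 CPM in AG11, AG15 and AG9. In AG13, then, Ldhc was at most of its AG8 level while Pgk2 was far below its own. Gapdhs stayed between 2.33 and 12.3 CPM up to AG8 and was at 344, 1136 and 2783 CPM in AG11, AG15 and AG9.

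The general forms left at different points too. Gapdh had 143 CPM (132 to 156) in AG1, 39.9 CPM (30.8 to 50.8) in AG10, 58.2 CPM in AG13, 33.2 CPM in AG16 and 17.9 CPM in AG8. Pgk1 had 35.9 CPM (30.2 to 42.3), 14.7 CPM (9.44 to 21.9), 3.54, 5.77 and 0.886 CPM in the same clusters. Pdha1 had 18.3 and 10.4 CPM in AG1 and AG10 and between 0 and 0.187 CPM in AG13, AG16, AG8 and AG11. All X-linked genes together made up 2.41% and 1.60% of the UMIs of AG1 and AG10, 0.0472%, 0.0217% and 0.0480% in AG13, AG16 and AG8, and 0.712%, 1.47% and 1.65% in AG11, AG15 and AG9.

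**Figure D2:**
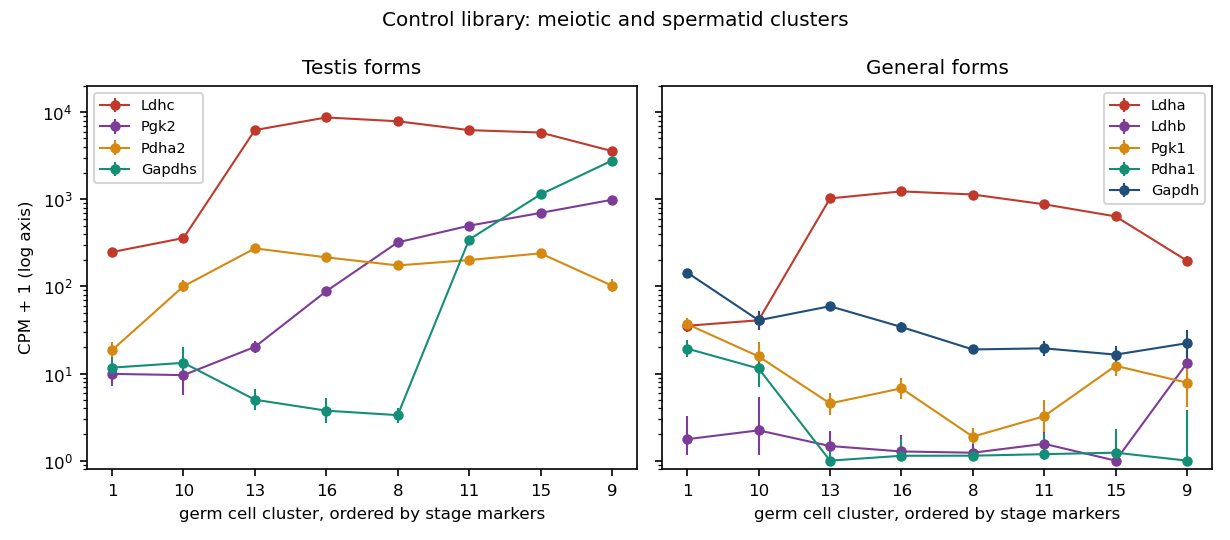
Levels of the 4 testis forms and their general forms (CPM plus 1, log axis) in 8 germ cell clusters of the control library, numbered as AG1, AG10 and so on and placed in order by marker genes, with 95% counting intervals. Pdha2 was at 99.4 CPM in cluster AG10, where Ldhc was at 358 CPM, and Pgk2 reached 319 CPM only in AG8.

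The share of the testis form among all counts of an enzyme was compared between the classes. In pachytene-like cells Pgk2 was 99.6% (99.5 to 99.7) of phosphoglycerate kinase counts in the Tomato-negative and 99.1% (98.9 to 99.3) in the control library, and Pdha2 was 99.8% of its pair in both. Ldhc was 87.3% in both, with nearly all of the rest Ldha, and was at 88.2% and 87.8% in round and 88.0% and 90.8% in elongating spermatid-like cells. Gapdhs was 29.9% (26.7 to 33.3) and 9.69% (7.72 to 12.0) in pachytene-like cells, 88.8% and 94.9% in round and 92.1% and 98.9% in elongating spermatid-like cells. As counted, the share of Ldhc showed no step at pachytene. It was already 81.9% (80.1 to 83.7) and 88.4% (86.8 to 89.8) in leptotene and zygotene-like, 83.2% and 88.3% in differentiating and 71.1% and 72.6% in undifferentiated spermatogonia-like cells of these libraries. Immune-like cells, which should lack Ldhc, had shares of 64.7% and 68.0%, at higher Ldhc levels than any of these classes. Subtracting the immune-like level thus left no Ldhc in these germ cell classes. In the Scf-cKO library the share was 11.4% in undifferentiated and 26.2% in differentiating spermatogonia-like cells, and 15.1% (12.0 to 18.7) in the 866 differentiating cells of cluster AG0. The part of free RNA in the shares before pachytene was not tested. The share of Gapdhs passed 88% only in round and elongating spermatid-like cells. With cells of over 3500 genes left out, the Gapdhs share in control pachytene-like cells was 31.8% (13.9 to 54.9).

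**Figure D3:**
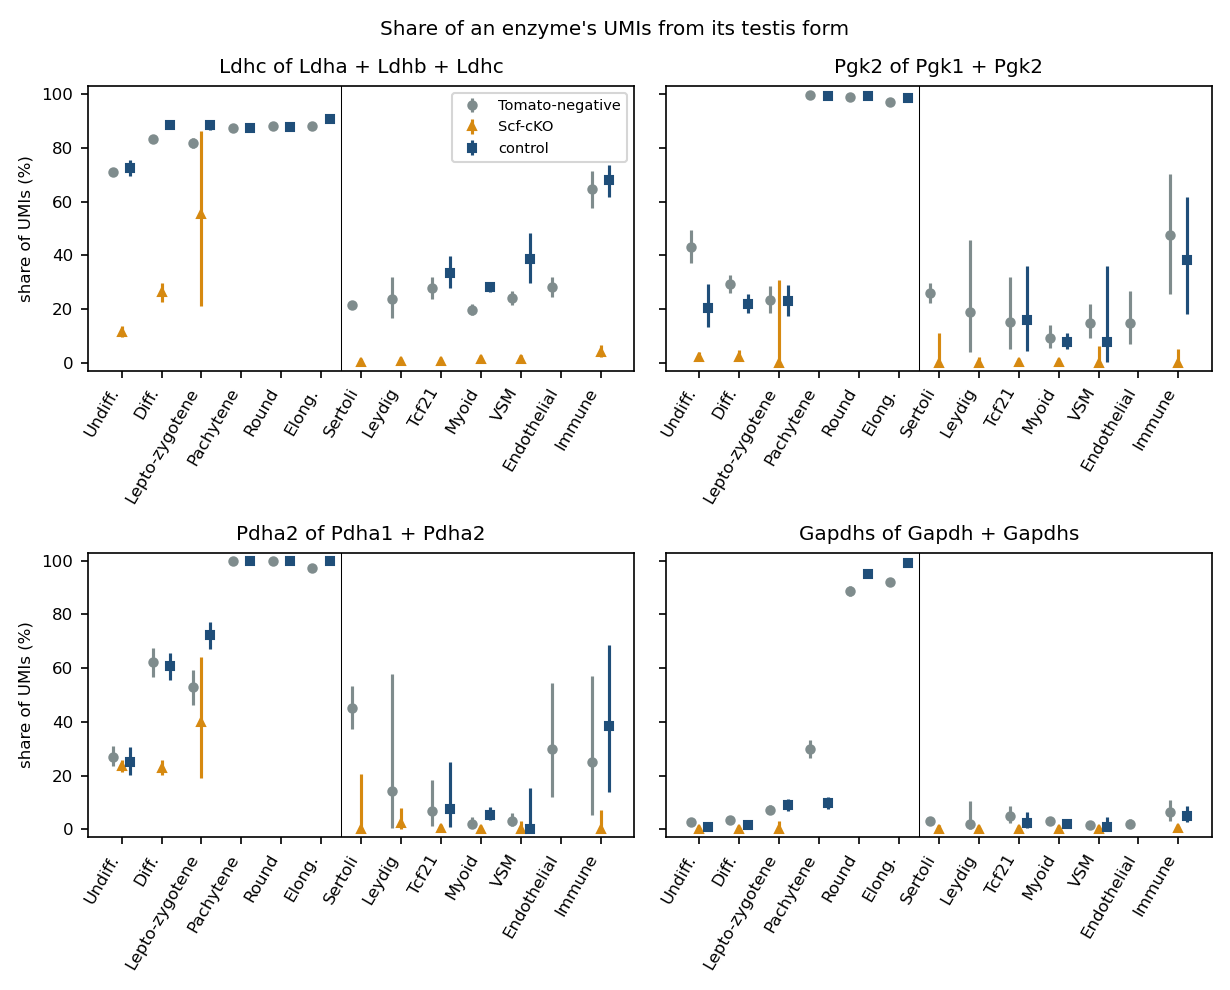
Share of the testis form among the counts of each enzyme, in percent, by germ cell class (left of the line), somatic class (right of it) and library, with 95% Clopper-Pearson intervals. Pgk2 and Pdha2 passed 99% of their pairs in pachytene-like cells, Ldhc was at 87.3% there and at 81.9% and 88.4% in the class before, and Gapdhs passed 88% in round spermatid-like cells.

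The Scf-cKO library still held 15 pachytene-like, 9 round and 11 elongating spermatid-like cells, too few for comparison. Their shares were 88.2% (87.5 to 89.0) for Ldhc, 100% (98.5 to 100) for Pgk2 and 100% (98.1 to 100) for Pdha2 in pachytene-like cells, and 97.9% (96.5 to 98.9) for Gapdhs in elongating spermatid-like cells.

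With each cell thinned to 2000 UMIs, Ldhc was seen in all 478 Tomato-negative and all 641 control pachytene-like cells. A Pgk2 UMI was seen in 44.4% (39.8 to 48.9) and 41.2% (37.4 to 45.1) of them, and a Pdha2 UMI in 28.7% and 29.6%. In immune-like cells, which should lack these genes, 45.7% of Tomato-negative and 61.0% of control cells had an Ldhc UMI, 3.88% and 3.90% a Pgk2 UMI and 1.55% and 2.60% a Pdha2 UMI, at median depths of 2736 and 2094 UMIs. Gapdhs UMIs were in 1.88% and 0.780% of pachytene-like cells, at or below the 3.88% and 5.19% of immune-like cells, and in 76.1% (70.4 to 81.2) and 92.8% (87.7 to 96.2) of elongating spermatid-like cells.

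Scf from Sertoli cells signals through KIT on spermatogonia, and the next comparison asks whether the members differ where it was deleted. In undifferentiated spermatogonia-like cells no member was at least 2-fold higher in the Scf-cKO library than in the control library, where 3.81% of 16200 genes tested were, and 3 of 9 were at most 0.5 of the other level, as were 5.62% of all genes. Those 3 were Ldhc, Pgk2 and Gapdhs, whose levels in both libraries lay below, within or near the range of the somatic classes, and the part of free RNA in their ratios was not tested. Pdha2 had 16.2 and 15.5 CPM, a ratio of 1.05 (0.811 to 1.37), and Pdha1 53.2 and 46.2 CPM, a ratio of 1.15 (0.993 to 1.34). Ldhb and Pgk1 had ratios of 1.10 (0.860 to 1.41) and 0.934 (0.734 to 1.20), Gapdh 1.22 (1.17 to 1.27) and Ldha 0.611 (0.512 to 0.733). By cluster of this class, the Ldhb ratio was 2.125 (1.305 to 3.672) in AG4, 1.07 (0.640 to 1.90) in AG5 and 0.719 (0.501 to 1.045) in AG6. In AG4 the undifferentiated spermatogonia markers summed to 958 CPM in Scf-cKO and 510.5 CPM in control cells, and the differentiating markers to 548 and 1064 CPM. The cells of AG4 thus differed in stage markers between the libraries, and the part of this in its Ldhb ratio was not tested.

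In differentiating spermatogonia-like cells 2 of 9 members were at least 2-fold higher in the Scf-cKO library and 5 at most 0.5 of the level in the control library, where 18.3% and 19.1% of 17059 genes tested were. Ldhb had 12.6 CPM (11.03 to 14.4) in Scf-cKO cells against 1.22 CPM (0.711 to 1.96) in control cells, which is 10.4-fold (6.32 to 18.1). Pdha1 stood at 41.2 CPM (38.3 to 44.4) against 10.7 CPM (9.05 to 12.6), which is 3.85-fold (3.23 to 4.63). Both were thus closer in Scf-cKO differentiating cells to the undifferentiated class, with ratios between the classes of 0.672 (0.567 to 0.795) for Ldhb and 0.776 (0.705 to 0.853) for Pdha1, against 0.0711 (0.0395 to 0.121) and 0.232 (0.187 to 0.286) in the control library.

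Different clusters held most of this class in each library, since 866 of the 1191 Scf-cKO cells and 489 of the 2100 control cells were in cluster AG0. Within AG0, where 16.9% of genes tested were at least 2-fold higher and 12.5% at most 0.5 of the other level in the Scf-cKO library, Pdha1 had 42.2 and 9.83 CPM, a ratio of 4.29 (3.24 to 5.81), and Ldhb 12.8 and 1.32 CPM, a ratio of 9.69 (4.62 to 24.4). In the same cluster the 10 undifferentiated spermatogonia markers summed to 655 CPM in Scf-cKO and 121 CPM in control cells, and the 8 differentiating markers to 742 and 1021 CPM. Cluster AG3 held 228 Scf-cKO and 697 control cells of this class. There the undifferentiated markers summed to 870 and 25.05 CPM and the differentiating markers to 549 and 1879 CPM, at medians of 1367 and 4129 UMIs. The cells under 1 name thus differed in stage markers as well, and the part of this in the ratios was not tested.

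Markers of somatic cells were low in these cells. The 7 myoid markers summed to 64.0 CPM in Scf-cKO and 50.8 CPM in control differentiating spermatogonia-like cells, against 20565 and 24020 CPM in myoid-like cells. The 8 Tcf21 stromal markers summed to 48.2 and 8.69 CPM, against 15885 and 20533 CPM in Tcf21 stromal-like cells, in which Ldhb had 427 and 276 CPM. The part of such transcripts in the Ldhb and Pdha1 values was not tested. In immune-like cells Ldhb had 63.6 and 17.3 CPM and Pdha1 42.4 and 27.7 CPM in the Scf-cKO and control libraries.

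Of the 5 members that were lower, Ldhc, Pgk2 and Gapdhs had 9.15, 0.343 and 0.172 CPM in Scf-cKO and 332, 9.19 and 8.40 CPM in control differentiating spermatogonia-like cells, which in both libraries is within or near the range of somatic classes. Cluster AG12, with 5 Scf-cKO and 239 control cells, held 1708 CPM of Ldhc and 1135 CPM of pachytene markers in the control library. In the Scf-cKO library AG0, AG2 and AG3 held 72, 4 and 4 of the 160 Ldhc counts of this class. The 5 Scf-cKO cells of AG12 held the rest. Ldha had 13.2 and 42.7 CPM, a ratio of 0.308 (0.263 to 0.359), but 0.593 (0.468 to 0.755) in AG0 alone and 0.486 (0.407 to 0.579) without AG12, and the part of free RNA in this ratio was not tested. Pgk1 had 15.2 CPM (13.4 to 17.2) in Scf-cKO cells against 32.7 CPM (29.7 to 35.8) in control cells, 0.466 (0.399 to 0.543) as a ratio, but 0.569 in AG0 alone. Pdha2 was at 12.2 and 16.5 CPM, a ratio of 0.738 (0.609 to 0.892), and Gapdh at 715 and 522 CPM, a ratio of 1.37 (1.33 to 1.41).

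In leptotene and zygotene-like cells, of which the Scf-cKO library had 76, 1 of 8 members tested was at least 2-fold higher and 5 were at most 0.5 of the other level, beside 5.48% and 14.1% of 11036 genes. Gapdh had 272 and 113 CPM, a ratio of 2.40 (1.96 to 2.93), and Pdha2 18.3 CPM (7.89 to 36.0, 8 counts) against 41.6 CPM (36.4 to 47.3), or 0.439 (0.188 to 0.881) of the control level. In this class 70 of the 76 Scf-cKO cells were in cluster AG1, where Pdha2 had 16.01 and 17.6 CPM, against 873 of 1178 control cells. The other 4 of the lower members were Ldha, Ldhc, Pgk2 and Gapdhs, with 2, 5, 0 and 0 counts in Scf-cKO cells. As 3 counts would be 6.85 CPM there and Pgk2 and Gapdhs had 8.81 and 11.2 CPM in control cells, a 2-fold difference of these genes was not detectable at this depth.

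**Figure D4:**
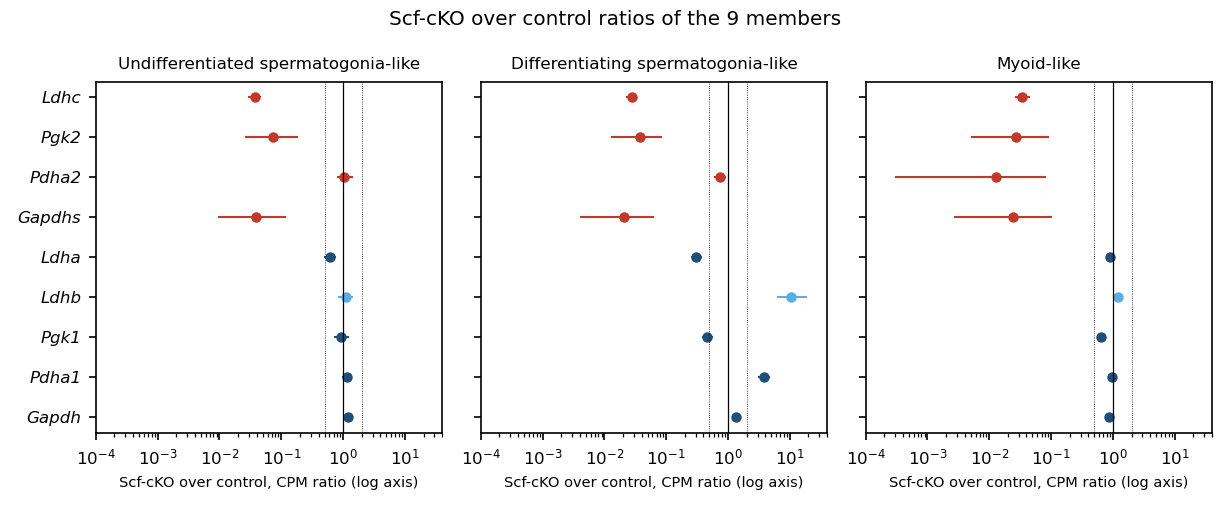
Ratio of Scf-cKO over control levels of the 9 members on a log axis, in undifferentiated spermatogonia-like, differentiating spermatogonia-like and myoid-like cells, with 95% counting intervals and dotted lines at 0.5 and 2. Ldhb at 10.4 and Pdha1 at 3.85 stand above 2 in differentiating spermatogonia-like cells, and Ldhc lies between 0.0275 and 0.0373 in all 3 classes.

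In the somatic classes the general forms were mostly within 2-fold of the control library. In myoid-like cells, with 1999 Scf-cKO and 562 control cells, Ldha, Ldhb, Pdha1 and Gapdh had ratios of 0.903 (0.833 to 0.980), 1.20 (1.11 to 1.30), 0.969 (0.860 to 1.09) and 0.855 (0.797 to 0.917), and Pgk1 0.640 (0.563 to 0.729). The 4 testis forms had ratios of 0.0128 to 0.0341 in these cells, which should express none of them, and all 4 count among the lower genes of this class, as did 6.46% of all genes, with 0 members and 5.45% of genes higher. Ldhc in undifferentiated and differentiating spermatogonia-like cells, at 0.0373 (0.0302 to 0.0458) and 0.0275 (0.0234 to 0.0322), had ratios whose intervals overlap that of myoid-like cells, at 0.0341 (0.0266 to 0.0433). In immune-like cells Ldhb was 3.68-fold (1.51 to 11.7) higher, on 5 control counts, where 13.7% of genes tested were at least 2-fold higher. In Tcf21 stromal-like, vascular smooth muscle-like and immune-like cells 6 members each could be compared and Ldhc alone was lower, beside 8.03%, 4.99% and 9.09% of all genes, and no member was higher in the first pair of these classes, beside 13.2% and 10.4%.

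Other genes of the pathways were counted from lists chosen with earlier results of these data known. In undifferentiated spermatogonia-like cells 0 of 15 glycolysis genes tested were at least 2-fold higher in the Scf-cKO library and 1 was at most 0.5 of the other level, Pgam2, a phosphoglycerate mutase, at 0.745 and 28.2 CPM, beside 3.81% and 5.62% of all genes. In differentiating spermatogonia-like cells 5 of 16 were higher and 2 lower, beside 18.3% and 19.1% of all genes, with a median log2 ratio of 0.46 against -0.10 over all genes tested. Aldoa (aldolase A) had 201 CPM in Scf-cKO and 43.5 CPM in control cells, Pkm (pyruvate kinase) 210 and 46.7 CPM and Eno1 (enolase) 91.0 and 26.8 CPM, while Pgam2 had 1.60 and 44.5 CPM. Of the 10 transport genes tested in this class 2 were higher and 5 lower, again beside 18.3% and 19.1%: Slc2a1, a glucose transporter, had 15.7 and 3.16 CPM, and Slc2a3, the transporter of later germ cells, 7.32 and 52.5 CPM. Both Pgam2 and Slc2a3 are abundant in control pachytene-like cells, at 1307 and 943 CPM, and the part of free RNA in their lower values was not tested. Of 10 genes around pyruvate dehydrogenase 3 were higher and 2 lower, beside the same 18.3% and 19.1%, with Pdk1, a kinase that inactivates the complex through its E1 alpha subunit, at 71.0 and 4.60 CPM, a ratio of 15.4 (12.0 to 20.2). Stage markers also differed between the libraries within this differentiating class, and the part of this in these values was not tested.

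Within the Scf-cKO library 1 of 15 glycolysis genes was at least 2-fold higher and 0 were at most 0.5 of the other level in differentiating than in undifferentiated spermatogonia-like cells, where 2.25% and 4.45% of all genes were. In the control library 0 were higher and 6 lower, beside 13.7% and 15.1% of all genes. At pachytene in the control library 9 of 15 glycolysis genes were higher and 5 lower than in leptotene and zygotene-like cells, beside 32.2% and 44.4% of all genes, with a median log2 ratio of 1.65 against -0.57 over all genes tested. Pgam2 had 1307 and 41.2 CPM and Pfkp, a phosphofructokinase, 246 and 6.30 CPM, whereas Pkm had 4.33 and 77.7 CPM. Slc16a1, a lactate transporter, had 1.20 and 79.3 CPM and Slc16a7, another, 70.3 and 4.50 CPM. Pdk2 had 69.3 and 2.34 CPM, while the X-linked Pdk3 had 0.905 and 100 CPM.

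The genes most like each testis form were found by Pearson's r of log2(CPM + 1) over 32 points, each a class in a library, which share libraries, depth and free RNA. The closest to Ldhc were Crisp2 (r = 0.996), Ppp3r2, Spata4, Prdx6b and Cmtm2b, and the closest to Pgk2 were Ankrd7, 4930449C09Rik, 1700030C12Rik, Ccdc7b and Ankrd60. Pdha2 was closest to 1700020N01Rik (r = 0.971), Zfand4, Pfn4, 4930542C12Rik and Efcab10, and Gapdhs to Ropn1 (r = 0.988), Cypt4, 1700093K21Rik, Rnf151 and Hils1. Among the members themselves Ldhc and Pgk2 had r = 0.970, Pdha2 and Gapdhs r = 0.648, and Pdha2 and Pdha1 r = -0.857.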

How the data were processed

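Single cells of 3 mouse testis libraries had been captured with the 10x Genomics 3′ method, and the authors made UMI counts per gene and cell with Cell Ranger 2.1.1 on GRCm38. The deposited counts are raw. Of the merged Tomato-negative table of 14039 cells, the 7626 of this library were used and 6413 were not analysed here. The members and lists were chosen with earlier results of these data known.

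Cells with 200 to 7500 genes and under 10% mitochondrial counts were kept. The libraries were integrated by anchors (20 dimensions, 2000 variable genes without members or pathway genes) in Seurat 5.3.0 under R 4.3.3 and clustered with 25 components at resolution 0.8 for germ cells and 10 components at 0.3 for somatic cells. The resolutions stated in the methods, 0.3 and 0.08, were an alternative. Clusters were named from marker lists, so classes are rebuilt and may differ from the study's. Scrublet (scanpy 1.11.5, expected rate 6%) called 329 Tomato-negative, 352 Scf-cKO and 214 control cells doublets, which were kept, and leaving them out was an alternative. Libraries shared 9 to 15 barcodes.

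Counts were summed per class and library, in Python 3.11.15 with numpy 2.4.6, scipy 1.17.1, pandas 2.3.3 and matplotlib 3.10.9, and given as CPM. Intervals are 95%: exact Poisson for levels, Clopper-Pearson for shares and exact conditional binomial for ratios. They cover counting error only, since each condition had 1 library. A gene was compared with at least 20 summed counts, in classes of at least 30 cells, and called past 2-fold or 0.5. All members are named. Of each pathway list, genes past 2-fold were named from the first 6 per comparison by the interval end nearest to 1, and for each testis form the 5 genes with at least 100 UMIs and the highest correlation. The ratio calculation was tested on simulated data.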

Additional observations from a re-analysis of the deposited data

How the results depend on the processing

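No paired analysis was possible because each condition had 1 library. No called ratio changed its direction under the alternatives run. With a limit of 3500 genes per cell, control pachytene-like shares were 31.8% for Gapdhs, 85.7% for Ldhc, 93.4% for Pgk2 and 100% for Pdha2. With the immune-like level of the library subtracted, the shares of Ldhc, Pgk2 and Pdha2 were 89.2%, 100% and 100%. Control immune-like cells held Pgk1 at 44.96 CPM and Pdha1 at 27.66 CPM, more than control pachytene-like cells did. Subtraction thus removed these general forms entirely, so the 100% shares of Pgk2 and Pdha2 were fixed beforehand and test nothing. After thinning to 1000 UMIs the shares of Ldhc, Pgk2 and Pdha2 were 87.0%, 99.5% and 99.1%. The Ldhc share was 87.1% with the members among the variable genes, with a mitochondrial limit of 5% and with the stated resolutions, and 87.6% with no upper limit on genes. The Pgk2 share under the first 3 of these was 98.8%. The Pdha2 share was 99.96% without doublets and 99.9% with each library clustered alone.

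Of members at least 2-fold higher in Scf-cKO differentiating spermatogonia-like cells there was 1 under the 3500 limit and 1 after thinning. In leptotene and zygotene-like cells there were 3 with each library clustered alone, 2 with the members among the variable genes, 2 with the 5% limit and 0 after thinning. At most 0.5 of the control level were 3 members in differentiating cells with AG0 alone and 3 with each library clustered alone, 3 in leptotene and zygotene-like cells after thinning, and 1 in undifferentiated cells under the 3500 limit and 1 after thinning. The settings AG0 alone and without AG12 were chosen after seeing the data. The ratio in differentiating cells ran between 2.98 and 5.34 for Pdha1 over the settings that gave a ratio, and between 7.62 and 16.7 for Ldhb over those in which it had enough counts, which were all of these but the 3500 limit and thinning. With the immune-like level subtracted, both genes were at 0 CPM in this class in both libraries, as immune-like cells held more of each. The cause of these moves was not tested, beside that thinning and the 3500 limit leave fewer counts, so that 4 to 8 of the 9 members could be compared. With 1 library per condition, genotype, mice, sorting and capture cannot be told apart.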

Other observations

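Other testis forms of metabolic genes passed through the same stages. Cyct, the testis form of cytochrome c, was counted with Cycs. In undifferentiated spermatogonia-like cells its share was 38.0% in the Tomato-negative, 31.1% in the Scf-cKO and 35.0% in the control library. It was lower, at 8.95% and 21.6%, in Tomato-negative and control leptotene and zygotene-like cells, and 98.3% and 99.01% in pachytene-like cells. Slc25a31, the testis ADP/ATP carrier, was already at 96.4% and 98.3% in leptotene and zygotene-like cells, and Cox7b2, a cytochrome c oxidase subunit form, at 91.7% and 94.7%. Atp1a4, the sodium pump subunit of sperm, was at 34.2% and 56.2% in pachytene-like and 90.3% and 99.6% in elongating spermatid-like cells. The aldolase retrogenes Aldoart1 and Aldoart2 were at 1.62% and 0.684% and at 6.54% and 4.97% in pachytene-like cells, and at 28.2% and 43.5% and at 61.0% and 72.8% in elongating spermatid-like cells. These shares are given with no test, and the part of free RNA in those before pachytene was not tested.

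In Tomato-negative elongating spermatid-like cells the shares of Cyct and Slc25a31 were 23.0% and 15.8%, against 88.5% and 65.7% in control cells, in the class whose main cluster held 3194 and 53.2 CPM of Sertoli cell markers. The part of those transcripts was not tested.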
